A study of Homo sapiens with 4 samples.

Results

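MYC and the 4 nucleolar genes NCL, NOP56, NOP2 and NOC3L were followed in OCI-Ly3 cells in which a hairpin RNA against IKKa had been switched on. The members are all probes annotated to these 5 symbols, 13 of the 15246 probes and 5 of the 4604 named genes of the array. MYC had 4 probes, NOP2 5, NOP56 2, and NCL and NOC3L 1 each. Of the 13 probes, 12 had a value on every array, and 1 MYC probe lacked a value on 1 array and stayed out of the gene's mean. OCI-Ly3 is an established cell line from a human lymphoma of the ABC (activated B-cell) kind. Each of the 4 two-colour arrays set Cy5-labelled cDNA of cells given doxycycline, which switches on the hairpin, against Cy3-labelled cDNA of cells without doxycycline. On 2 arrays the cells of both channels were also given MLN120b, which blocks IKKb, at 12.5 uM: for 24 h with 3 days of doxycycline, and for 3 h with 2 days. On the other 2 arrays neither channel had inhibitor, and doxycycline, at 20 ng/ml on every array, was given for 3 days or 2 days. The series title asks whether IKKa stands in for IKKb in classical NF-kB signalling. All the RNA came from 1 cell line, the sequence of the hairpin is not stated in the labels, and log ratios show no absolute level, so neither the identity of the line nor the abundance of a transcript could be checked on them.

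MYC is a basic helix-loop-helix transcription factor that binds E-box DNA together with its partner MAX and drives genes of growth and division. Ribosome production is among its best known outputs: MYC raises transcription of ribosomal RNA and of the nucleolar proteins that cut, modify and fold that RNA into subunits. In lymphoid cells the MYC gene is also a known target of NF-kB, the pathway that the IKK kinases switch on.

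The values are log2 ratios, below 0 where the cells with the hairpin switched on had less transcript. The direction of the ratio is likely that of treated over untreated cells, although the file does not state it: Cy5 is commonly divided by Cy3, and this puts CHUK, the gene of IKKa and target of the hairpin, below 0 on every array. Were it the other way round, every sign given here would turn. CHUK had -1.01 on the 24 h and -1.30 on the 3 h inhibitor array, against -0.87 at 3 days and -0.59 at 2 days without inhibitor. As no array had the dyes swapped, an effect of the dye and an effect of doxycycline cannot be told apart in a value set against 0. No label names a control hairpin, so effects of doxycycline itself, of the hairpin on other genes and of IKKa loss cannot be told apart. The arrays measured bulk RNA, so fewer cells with a transcript and less transcript per cell cannot be told apart either. Ratios spread unequally over the arrays. The median absolute deviation over 3589 genes was 0.26 on the 24 h and 0.17 on the 3 h inhibitor array, and 0.18 at 3 days and 0.11 at 2 days without inhibitor. For this reason the percentile of a member among these genes on the same array is given beside its ratio.

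The promoters of the nucleolar members are shown as a description, since the E-box CACGTG is a sequence that MYC binds. Whether MYC has a part in the ratios of these genes was not tested. RefSeq promoter sequences (GRCh38.p14) were matched for 4 members, NCL, NOP56, NOP2 and NOC3L. An E-box, searched over 250 bases before and 50 after the start, was found in NOP2, beginning at base 36 after the start, and in NOC3L, beginning at base 20. Of 27305 promoters of the same length 7.4% held one. The 30 bases around each E-box, with the E-box in capitals, lie at chr12:6568242-6568271 and chr10:94362903-94362932, on the minus strand of both chromosomes.
NOP2: gctaggtccggattgCACGTGgagggccgc
NOC3L: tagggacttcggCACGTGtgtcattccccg
NCL and NOP56 had no CACGTG in this window, which says only that these letters are not there. Their 250 bases before the start are shown with the CCAAT box (CCAAT) and the GC box (GGGCGG), common promoter elements, in capitals on either strand. They lie at chr2:231464485-231464734, minus strand, and chr20:2652382-2652631, plus strand.
NCL: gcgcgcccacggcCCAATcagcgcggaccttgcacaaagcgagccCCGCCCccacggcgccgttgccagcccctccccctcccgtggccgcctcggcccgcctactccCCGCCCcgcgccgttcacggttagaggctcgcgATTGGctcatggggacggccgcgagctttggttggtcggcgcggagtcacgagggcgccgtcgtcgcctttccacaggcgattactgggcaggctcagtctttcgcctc
NOP56: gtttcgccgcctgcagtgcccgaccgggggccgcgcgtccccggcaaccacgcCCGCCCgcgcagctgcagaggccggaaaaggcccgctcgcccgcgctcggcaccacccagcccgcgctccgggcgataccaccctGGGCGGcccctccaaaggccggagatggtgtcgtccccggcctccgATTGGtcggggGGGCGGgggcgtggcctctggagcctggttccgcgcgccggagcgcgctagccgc
The CCAAT box occurred 2 times in NCL, 1 time in NOP56 and 1 time in NOC3L, and the GC box 2, 3 and 2 times. NOP2 had no match to either. Of all promoters 33.0% held a CCAAT box and 42.3% a GC box in these 250 bases. The GC content of the 250 bases was 72% in NCL, 78% in NOP56, 66% in NOP2 and 68% in NOC3L. The median over all promoters was 58.0%, and the shares given here are not matched for this content. These matches are a description of the letters and not of bound sites.

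MYC, the transcription factor, had a gene mean of -0.55 on the 24 h and -0.49 on the 3 h inhibitor array, against -0.37 at 3 days and 0.07 at 2 days without inhibitor. It was thus low on 3 arrays and slightly above 0 on the fourth, and both inhibitor arrays lay below both others. These values stood at percentiles 9.65 and 5.11 of the genes with inhibitor, and at 14.6 and 71.1 without. The probes differed in size but not in sign. On the 24 h array they ran from -0.81 to -0.19, and on the 3 h array from -0.79 to -0.21, all 4 below 0. Without inhibitor the 3 probes measured at 3 days ran from -0.54 to -0.08, all below 0. At 2 days without inhibitor the 4 probes ran from 0.05 to 0.11, all above 0. The same probe gave the value nearest 0 on both inhibitor arrays and at 3 days without inhibitor.

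NCL encodes nucleolin, an abundant nucleolar protein that binds ribosomal DNA chromatin and pre-ribosomal RNA. It had -1.34 on the 24 h and -0.56 on the 3 h inhibitor array, against -0.88 at 3 days and -0.35 at 2 days without inhibitor. The single NCL probe was below 0 everywhere, and both 3-day arrays were lower than both 2-day arrays. It stood at percentiles 0.850 and 3.66 with inhibitor, and at 1.46 and 5.50 without.

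NOP56 encodes a core protein of the box C/D snoRNPs, the particles that direct ribose methylation of ribosomal RNA. It had -0.80 on the 24 h and -0.70 on the 3 h inhibitor array, against -0.80 at 3 days and -0.11 at 2 days without inhibitor. So 3 arrays lay close together and the 2-day array without inhibitor stood apart, near 0. Its 2 probes were both below 0 on those 3 arrays and split at 2 days without inhibitor, with -0.25 and 0.03. The percentiles were 3.94 and 2.19 with inhibitor, and 2.05 and 28.8 without.

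NOP2 encodes a nucleolar cytosine methyltransferase of the large-subunit ribosomal RNA. It had -0.59 on the 24 h and -0.44 on the 3 h inhibitor array, against -0.57 at 3 days and -0.09 at 2 days without inhibitor. All 5 of its probes were below 0 on all 4 arrays, from -0.71 to -0.46 on the 24 h array and from -0.56 to -0.24 on the 3 h array. Without inhibitor they ran from -0.78 to -0.44 at 3 days and from -0.19 to -0.02 at 2 days, so no probe at 2 days was as low as any at 3 days. The gene stood at percentiles 8.34 and 6.42 with inhibitor, and at 5.42 and 31.6 without.

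NOC3L encodes a nucleolar protein whose yeast counterpart works in transport and maturation of large-subunit precursors. It had -2.00 on the 24 h and -0.83 on the 3 h inhibitor array, against -0.35 at 3 days and -0.42 at 2 days without inhibitor. Both inhibitor arrays were lower than both others, and the 2 arrays without inhibitor hardly differed. Its single probe stood at percentiles 0.181 and 1.38 with inhibitor, and at 15.6 and 3.61 without.

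**Figure D1:**
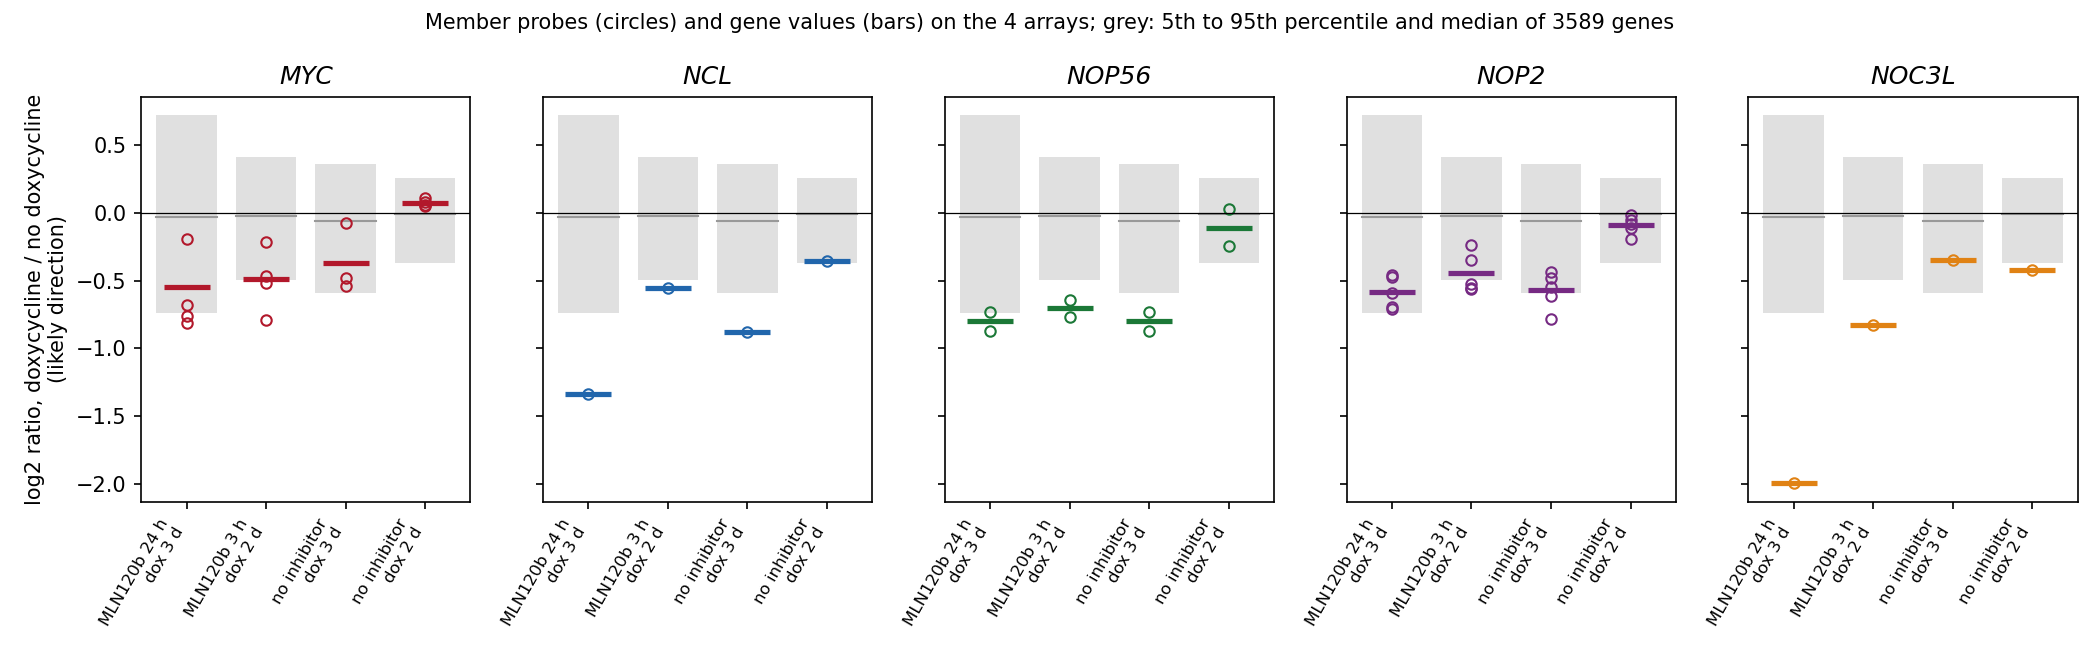
Log2 ratio of doxycycline over no doxycycline (likely direction) for each member on the 4 arrays: circles are probes, coloured bars the gene's mean over probes measured on all 4 arrays, grey boxes the 5th to 95th percentile of 3589 genes with their median as a line. MYC, NOP56 and NOP2 lie near 0 only at 2 days without inhibitor, while NOC3L reaches -2.00 on the 24 h inhibitor array.

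With IKKb inhibited, all 5 members had means below 0, and 1 of them, NOC3L, passed the test. The test was limma's moderated test on 3589 genes, in which 3.04% of genes passed as lower at a Benjamini-Hochberg adjusted p under 0.05. NOC3L fell by a mean log2 ratio of -1.41 ± 0.83 (SD, n = 2 arrays), which is 2.66-fold lower in the likely direction (SE 0.25, adjusted p = 0.0316). The other means did not pass: NCL had -0.95 ± 0.55 (adjusted p = 0.0520), NOP56 -0.75 ± 0.07 (0.0539), MYC -0.52 ± 0.04 (0.0728) and NOP2 -0.52 ± 0.10 (0.0782). All 5 had an unadjusted p under 0.05, as had 15.8% of all genes on the lower side. All 5 were below 0 on both inhibitor arrays, where 38.9% of genes were, and NOP56 and NOC3L were more than 1.5-fold lower on both, where 2.4% of genes were. ACTB, the cytoskeletal actin, and GAPDH, a glycolytic enzyme, are often used as references. Their means were -0.72 (limma adjusted p = 0.0756) and -0.385 (0.158), so that of ACTB was lower than those of MYC and NOP2. The NOC3L value rested on 1 probe and moved with the arrays used: it was -0.83 without the 24 h array and -2.00 without the 3 h array, and its call ended without either array of doxycycline alone (adjusted p = 0.0656). With day of doxycycline as a replicate block all 5 members passed, at adjusted p-values of 0.00818 for NCL, 0.0146 for NOC3L, 0.0168 for NOP56, 0.0214 for NOP2 and 0.0226 for MYC, in a fit in which 908 genes passed in place of 164.

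Without inhibitor no member passed, and neither did any other gene (0% of 3589, 9.86% lower at an unadjusted p under 0.05). NCL had a mean of -0.62 ± 0.37 (limma adjusted p = 0.355) and NOP56 one of -0.45 ± 0.49 (0.397), and these were the 2 members with an unadjusted p under 0.05. NOC3L had -0.39 ± 0.05 (0.612), NOP2 -0.33 ± 0.34 (0.462) and MYC -0.15 ± 0.31 (0.749). The 2 arrays are different days, so the SDs include any change with time. The 4 nucleolar members were below 0 on both arrays, where 35.7% of genes were, while MYC had opposite signs on the 2 days. No member was more than 1.5-fold lower on both arrays, where 0.919% of genes were. ACTB had a mean of -0.70 (limma adjusted p = 0.279), lower than that of any member, and GAPDH one of -0.42 (0.375). What these reference genes share with the members was not tested. NCL passed with the day as a replicate block (adjusted p = 0.0497, 56 genes passing in all) and after arrays were scaled to equal spread (0.0384, 140 genes). NCL and NOP56 passed without either inhibitor array (0.000506 and 0.0223), fits in which 231 genes passed and the remaining pair of arrays alone sets the spread.

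The difference between arrays with and without MLN120b asks whether the hairpin's ratio differed by inhibitor status. It lay below 0 for all 5 members, as for 45.5% of all genes, and passed for none (0% of genes passed, 1.62% lower at an unadjusted p under 0.05). NOC3L differed by -1.03 (SE 0.35, limma adjusted p = 0.989), MYC by -0.37 (SE 0.19), NCL by -0.33 (SE 0.29), NOP56 by -0.30 (SE 0.24) and NOP2 by -0.18 (SE 0.20), the last 4 with an adjusted p of 0.999. NOC3L alone of the 5 had an unadjusted p under 0.05. The sign turned for NCL without the 24 h array (0.06) and for NOP56 and NOP2 without the 2-day array of doxycycline alone (0.0485 and 0.0562). With arrays scaled to equal spread the differences were -0.65 for NOC3L, -0.34 for MYC, -0.19 for NOP56, -0.10 for NOP2 and -0.07 for NCL. In a fit that leaves out the 3 h array, where the inhibitor group is 1 array and the other pair alone sets the spread, NOC3L differed by -1.61 and passed, as 1 of 119 genes. A dye effect that is the same on every array drops out here. CHUK, the target of the hairpin, itself differed by -0.42 (SE 0.19, limma adjusted p = 0.989). Its ratio was thus also lower with inhibitor, and what part this has in the differences of the members was not tested. Both inhibitor arrays lay below both others for MYC and NOC3L, as they did for 11.2% of all genes. ACTB and GAPDH, low at either inhibitor status, differed by -0.02 and 0.04.

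The 2 days gave different pictures of this difference, and with 1 array for each condition these values have no test. At 2 days of doxycycline, where the inhibitor had been present for 3 h, the ratio with inhibitor minus that without was -0.60 for NOP56, -0.56 for MYC, -0.41 for NOC3L, -0.35 for NOP2 and -0.20 for NCL. Among all genes these differences stood at percentiles 1.24, 1.52, 5.17, 7.41 and 18.0. MYC's 4 probes all shared that sign, from -0.84 to -0.33, and so did both NOP56 and all 5 NOP2 probes. At 3 days, with 24 h of inhibitor, the differences were -1.65 for NOC3L, -0.46 for NCL, -0.18 for MYC, -0.01 for NOP2 and 0.0005 for NOP56. NOP56 and NOP2, low at 2 days only with inhibitor, were equally low at 3 days with or without it, while NOC3L was further apart at 3 days than at 2. The difference lay below 0 within both days for MYC, NCL, NOP2 and NOC3L, 4 of 5, against 25.6% of all genes. The median over all genes was -0.0015 at 2 days and 0.05 at 3 days. CHUK differed by -0.71 at 2 days, at percentile 0.488, and by -0.14 at 3 days, at percentile 20.2.

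**Figure D2:**
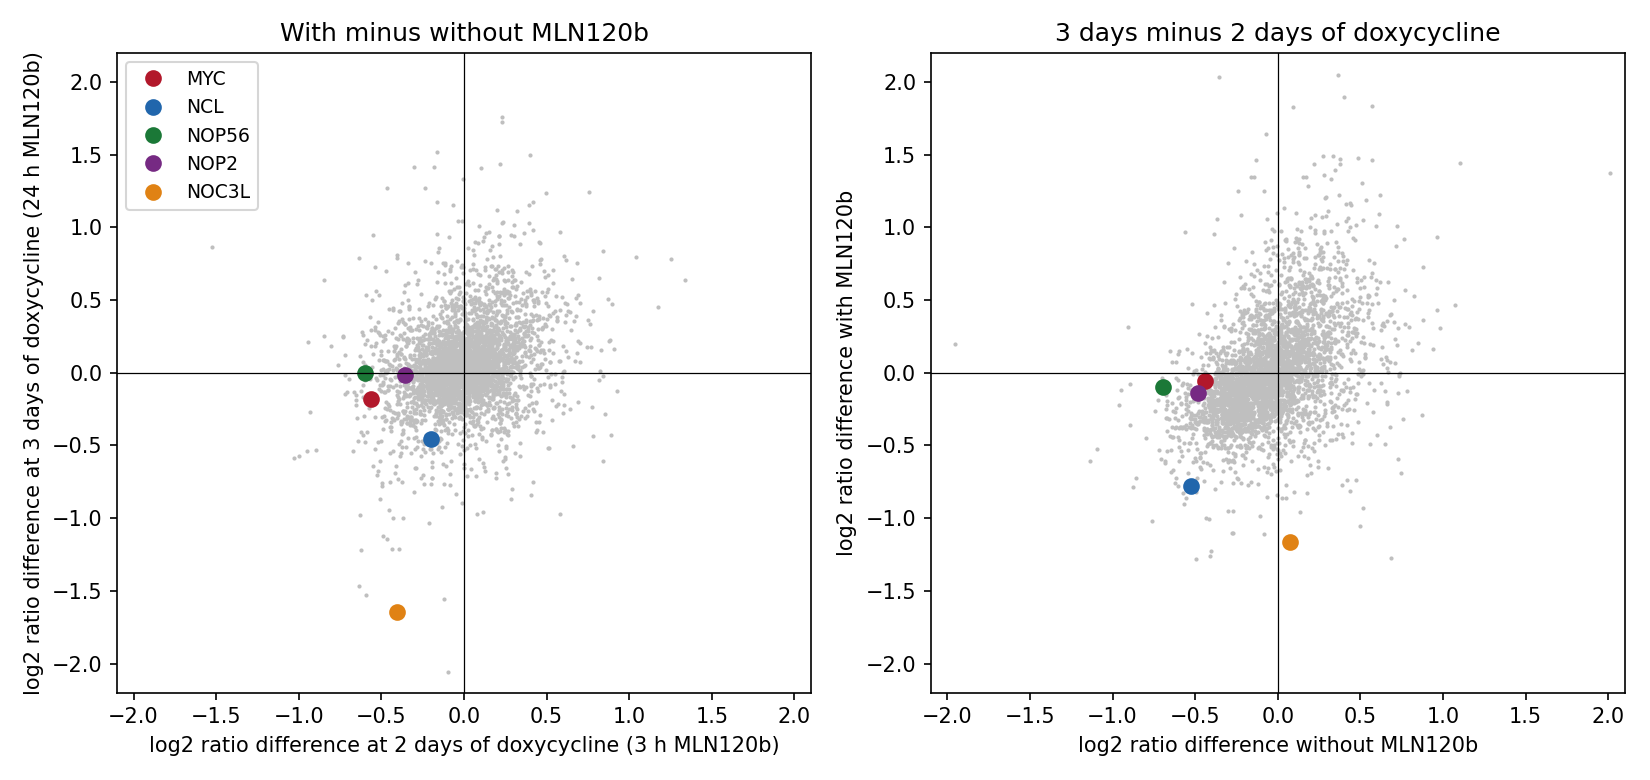
Left: difference of log2 ratios with minus without MLN120b, at 2 days of doxycycline (horizontal) and at 3 days (vertical). Right: 3 days minus 2 days, without (horizontal) and with MLN120b (vertical). Grey points are the 3589 genes, of which 3 lie outside the axes on the left and 2 on the right, and coloured points the members; MYC, NOP56 and NOP2 sit left of 0 and near the horizontal line in both panels, and NOC3L sits far below it.

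The values of the members also differed between the days of doxycycline. With 1 array for each condition, the differences within 1 inhibitor status have no test. Without inhibitor the ratio at 3 days minus that at 2 days was -0.69 for NOP56, -0.52 for NCL, -0.48 for NOP2 and -0.44 for MYC, at percentiles 0.488, 3.02, 4.19 and 5.56 of all genes, and 0.07 for NOC3L. With inhibitor it was -1.17 for NOC3L, -0.78 for NCL, -0.14 for NOP2, -0.10 for NOP56 and -0.06 for MYC. The 3-day value was the lower one at both inhibitor statuses for MYC, NCL, NOP56 and NOP2, 4 of 5, against 43.2% of all genes, and for NCL both differences were large. On these arrays the longer doxycycline time went with the longer inhibitor time, so the 2 cannot be told apart. In a fit with inhibitor status as a term, NCL was lower at 3 than at 2 days by a mean difference of -0.65 (SE 0.13, unadjusted p = 0.00302, limma adjusted p = 0.208). All 5 members had a day difference below 0, as had 58% of genes. The adjusted p was 0.268 for NOP56, 0.267 for NOP2, 0.321 for NOC3L and 0.348 for MYC. No gene of the 3589 passed (0%, with 11.3% lower at an unadjusted p under 0.05). With arrays scaled to equal spread the day differences of the members were nearer 0. They were -0.32 for NCL (limma adjusted p = 0.332), -0.21 for NOP56, -0.18 for NOP2, -0.17 for MYC and -0.10 for NOC3L. No member passed there, while 12 genes did. Both 3-day arrays lay below both 2-day arrays for NCL, NOP56 and NOP2, as they did for 34% of all genes. ACTB had -0.99 and -0.45 with inhibitor, and -1.04 and -0.37 without, the 3-day value first each time, and GAPDH had -0.55 and -0.22, and -0.65 and -0.20. Both reference genes were thus also lower at 3 days, and what part this has in the day difference of the members was not tested.

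Other genes of the pathway showed few calls, and the lists below hold none of the 5 members. Among genes of large-subunit assembly, 15 of 59 listed were measured on all 4 arrays. With inhibitor 11 of these 15 had means below 0, against 51.6% of all genes, with a list median of -0.16 against -0.01 over all genes. By limma 6 were lower at an unadjusted p under 0.05, as were 15.8% of all genes. After adjustment 2 of the 15 passed as lower and none as higher, where 3.04% and 1.53% of all genes did. NMD3, the adaptor that exports the large subunit from the nucleus, fell by a mean of -1.80 ± 0.22 (limma adjusted p = 0.00880). SDAD1, whose yeast counterpart is needed for export of the large subunit, fell by a mean of -1.28 ± 0.67 (adjusted p = 0.0304). PES1, of the complex that processes large-subunit RNA, had -0.49 (0.0672). NMD3 had -1.96 on the 24 h and -1.65 on the 3 h inhibitor array, against -1.43 at 3 days and -0.75 at 2 days without inhibitor. SDAD1 had -1.76 and -0.81 with inhibitor, against -0.99 and -0.69 without. Like NOC3L, both rested on 1 probe. Without either array of doxycycline alone NMD3 kept its call (adjusted p = 0.0189) and SDAD1 did not (0.0623), and without the 24 h array SDAD1 stood at -0.81. NMD3 was lower than every nucleolar member on all arrays but that of 24 h of inhibitor, where NOC3L was lower. The median of the list without inhibitor was -0.25, with 11 of 15 below 0 and none passing (6 lower at an unadjusted p under 0.05).

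Measured genes of the snoRNPs and the small-subunit processome had means nearer 0 than those of NOP56. Of 53 genes of the snoRNPs and the small-subunit processome 7 were measured, with a median of -0.25 with inhibitor and -0.09 without, and none passed in either comparison by limma (2 and 0 lower at an unadjusted p under 0.05). FBL, the methyltransferase fibrillarin that sits beside NOP56, had -0.51 and -0.37 with inhibitor, against -0.44 at 3 days and -0.14 at 2 days without. The means with inhibitor were -0.44 for FBL, -0.35 for WDR36, of the small-subunit processome, and -0.31 for NHP2, a core protein of the H/ACA snoRNPs. The list's median by array was -0.34 and -0.15 with inhibitor, and -0.24 and 0.06 without, so it too was highest at 2 days without inhibitor. Of the RNA polymerase I genes 7 of 18 were measured. Their median was -0.06 with inhibitor and -0.08 without, and none passed by limma (1 lower at an unadjusted p under 0.05 in each). NOLC1, a nucleolar chaperone of snoRNPs, had the lowest mean with inhibitor, -0.62, while the polymerase subunits POLR1C and POLR1E stood at -0.25 and 0.19.

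MYC target genes outside the nucleolus lay below 0 with inhibitor in 18 of 18 measured cases, against 51.6% of all genes, with a median of -0.24, and none passed by limma (7 lower at an unadjusted p under 0.05). Without inhibitor 17 of 18 were below 0, against 55.9% of all genes, with a median of -0.11 and none passing (4 lower at an unadjusted p under 0.05). By array the median was -0.40 and -0.12 with inhibitor, and -0.29 and -0.02 without, where the first value is that of 3 days. In the same order, 18 and 14 of 18 were below 0 with inhibitor, and 17 and 9 without. Of all genes 53.3% and 53.41% were below 0 with inhibitor, and 59.15% and 51.88% without. ENO1, the glycolytic enolase, had means of -0.82 with and -0.86 without inhibitor, TFRC, the transferrin receptor, -0.59 and -0.42, and CDK4, a kinase of the cell cycle, -0.50 and -0.37. The 8 measured partners and antagonists of MYC had a median of -0.10 with and -0.12 without inhibitor, and none passed by limma (1 and 2 lower at an unadjusted p under 0.05). RUVBL1 and RUVBL2, helicase-like cofactors of MYC, stood at -0.67 and -0.29 with inhibitor and TRRAP, a scaffold of histone acetyltransferases, at -0.25. MAX, the obligate partner, stood at 0.04.

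The 26 cytosolic ribosomal protein genes, the parts that the nucleolar proteins assemble, lay on either side of 0, with means from -0.59 to 0.28 with inhibitor and from -0.54 to 0.26 without. Their median was 0.07 with inhibitor and 0.10 without, with 10 and 7 of 26 below 0 and none passing by limma in either direction (2 lower and 1 higher with inhibitor, and 2 lower without, at an unadjusted p under 0.05). By array their median was 0.01 at 24 h and 0.11 at 3 h of inhibitor, against 0.001 at 3 days and 0.20 at 2 days without, and 13 of 26 were below 0 on each 3-day array. The difference of 3 minus 2 days lay below 0 for 25 of 26, against 58% of all genes. Its median was -0.19 against -0.055 over all genes, and none passed by limma. The same difference was below 0 for 17 of 18 MYC target genes and 12 of 15 genes of large-subunit assembly. So it was for 6 of 7 genes of the snoRNPs and processome, 5 of 7 of RNA polymerase I and 4 of 8 MYC partners and antagonists. The difference between the ribosomal protein list and the members was not tested.

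**Figure D3:**
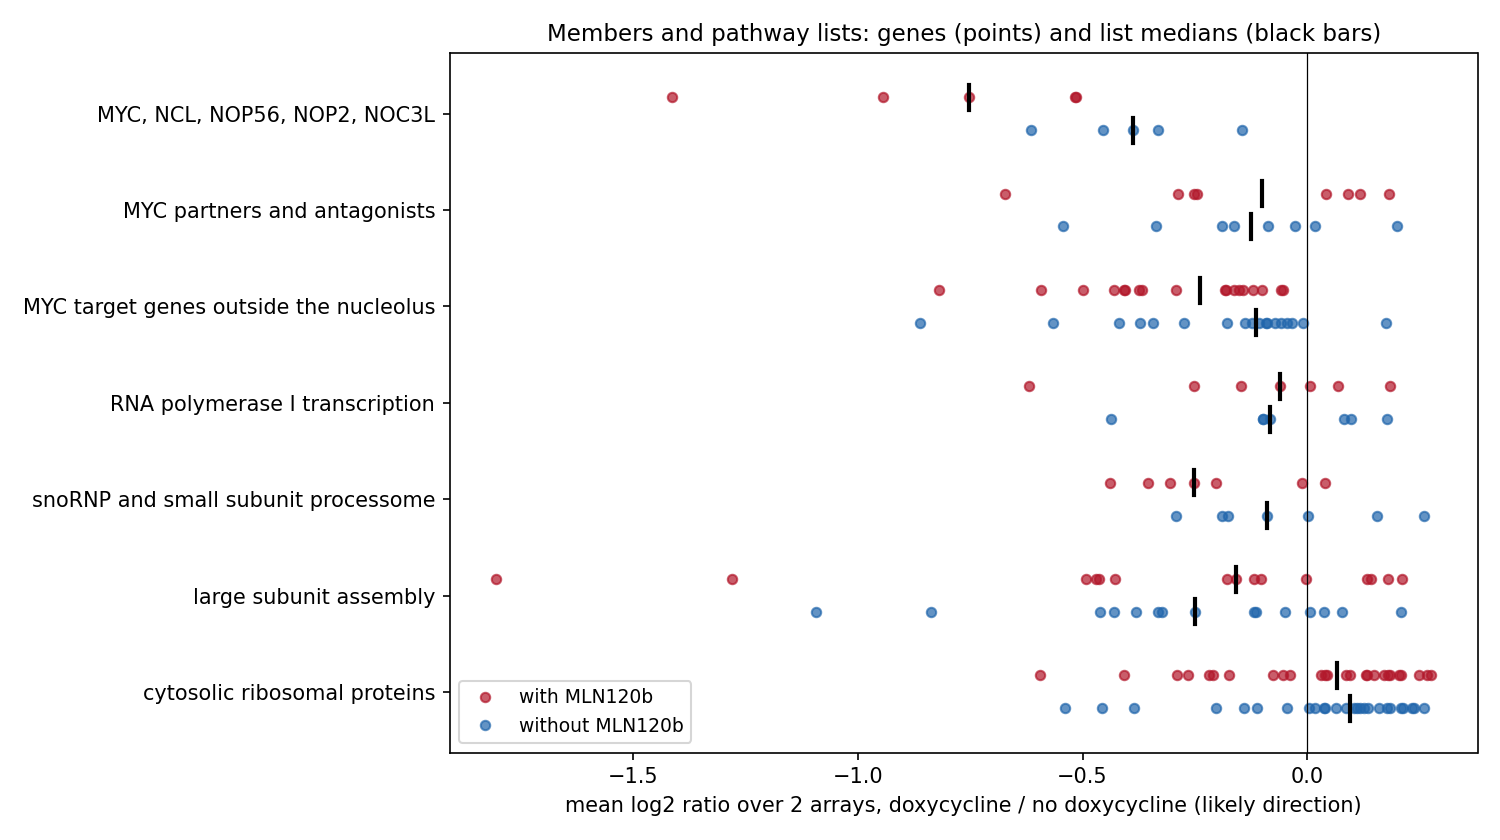
Mean log2 ratio over the 2 arrays with MLN120b (red) and the 2 without (blue) for the members and each pathway list; points are genes measured on all 4 arrays and black bars list medians. The member medians, -0.75 with and -0.39 without inhibitor, lie left of those of every list shown, and NMD3 at -1.80 is the lowest gene. Members and lists were chosen with earlier results of these data known, so the order of the medians is a description only.

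MYC and NOP2 had the most similar profiles of the 10 pairs, with a root mean square difference of 0.13 in log2 ratio over the 4 arrays, and MYC and NOC3L the least similar, with 0.79. Among 3584 other genes the nearest to MYC were DHX16, an RNA helicase of splicing (0.06), SLC25A38, a mitochondrial carrier (0.08), CENPE, a kinetochore motor (0.08), and ID2, an inhibitor of helix-loop-helix factors (0.08), against a median of 0.43. The mean profile of the 4 nucleolar members was -1.18 and -0.63 with inhibitor, against -0.65 and -0.24 without. Nearest to it were RHOT1, a mitochondrial GTPase (0.10), TNFAIP3, a feedback inhibitor of NF-kB (0.11), STARD4, a sterol carrier (0.11), and VPS4B, an ATPase of membrane scission (0.12), against a median of 0.75. With 4 arrays many genes can lie this close, and the likeness is a description only.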

How the data were processed

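The deposited values are log2 ratios, 1 for each probe on an array; base 2 was inferred from their range, and the dyes are as given per the labels. Background correction, normalization, spot filtering and signal over background are not stated there, and with 4 arrays precision is limited. Arrays held 11722 to 14375 probe values, with medians from -0.007 to 0, and correlated at 0.47 to 0.75 over genes. Probe symbols (10169 probes with 1, 4 with several, 5073 with none) were updated by gene ID through RefSeq for 10128. Probes with a value on all 4 arrays were averaged per gene (3589 genes).

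limma 3.58.1 in R 4.3.3 fitted 1 mean per group of 2 arrays (2 residual degrees of freedom, prior 4.98), and a second fit gave the day difference with inhibitor status as a term. Tests were two-sided, with Benjamini-Hochberg adjustment over all genes. The fits were tested on simulated data with equal spread on every array, which these 4 arrays did not have. The simulated gene variances were drawn from the fitted prior, with normal errors. The recovery is thus that of data which follow the model. Of 200 genes changed by log2 1, 72% to 95% were recovered, with 7 to 12 false calls. All 200 changed by log2 2 were recovered, with 13 to 42 false calls, the most in the day comparison. The arrays of a group differ in time and are not stated to be separate cultures, so the p-values reflect the spread among these arrays, which may be technical.

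Named genes are the members, CHUK and, per list, called genes and the 3 largest absolute means with inhibitor, except the ribosomal proteins, given by counts, medians and ranges; ACTB, GAPDH and MAX were added after their values were seen. The members and lists were chosen with earlier results of these data known. Alternatives were centring, scaling, missing values, probe medians, single probes, a robust prior, a threshold of 0.10, the day block and leaving out arrays.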

Additional observations from a re-analysis of the deposited data

How the results depend on the processing

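Of 220 recomputed member values, 214 kept their sign. Many of these could not turn. The robust prior, the threshold of 0.10, the day block and, for the day difference, dropping the inhibitor term leave the value unchanged. A group mean is also unchanged when an array of the other group is left out, as is a gene with 1 or 2 probes under the probe median. The 214 is therefore no measure of robustness. The 6 that turned came from leaving out 1 array: the NCL difference by inhibitor became 0.06 without the 24 h array (range with an array left out -0.72 to 0.06), the NOC3L day difference 0.074 without either inhibitor array (-1.17 to 0.074), the MYC mean without inhibitor 0.0743 without the 3-day array of doxycycline alone (-0.37 to 0.0743), and the differences by inhibitor of NOP56 and NOP2 0.0485 (-0.65 to 0.0485) and 0.0562 (-0.43 to 0.0562) without the 2-day array of doxycycline alone. The number of members called with inhibitor, 1, became 2 after scaling to equal spread, 3 with the median of a gene's probes, and 5 on single probes, at an adjusted p under 0.10 and with day as a replicate block; leaving out arrays gave 0 to 5. Calls over all genes moved too: 164 became 166, 221, 979 (of 9788 probes), 590 and 908, and 34 to 858 with an array left out. On single probes a member counted as called if any of its probes passed. With inhibitor the limma adjusted p was 0.366, 0.0520 and 0.0183 for the MYC probes. For the NOP2 probes it was 0.0649, 0.0328, 0.0751, 0.0400 and 0.188. An array left out leaves its group with 1 array, assumed to vary like the other pair, which alone sets the spread. Without inhibitor 0 became 1 after scaling and 1 with the replicate block, and 0 to 2 when arrays were left out, while calls over all genes went from 0 to 140, 56 and up to 231. For the difference, 0 stayed 0 except without the 3 h array (0 to 1, NOC3L, with 119 genes called in all). The day comparison kept 0 under each alternative that allowed a test; with an array left out it has no residual degrees of freedom. The cause of these changes was not tested, apart from fewer arrays where arrays were left out. Day is a treatment time here and no label calls it a pairing.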
